A study of Rattus norvegicus with 21 samples.

Results

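The genes described are the Notch ligands Jag1 and Dll1, the receptors Notch1, Notch2 and Notch3, and the effector genes Hes1, Hes5 and Hey1. They were chosen by name, as 8 of the 14217 genes with a probe set of their own on the array, and 10 of the 31042 probe sets carried one of them as the only symbol. Where a gene had several probe sets, the one with the highest mean over the 21 arrays was its lead probe set, as it was for every other gene. Rat forebrain astrocytes (Sprague Dawley) had been profiled on the Affymetrix Rat Genome 230 2.0 array in 7 groups of 3 biological replicates. Withdrawn P7 cultures were astrocytes taken from animals at postnatal day 7 by immunopanning, that is, by letting cells bind to a dish coated with an antibody to the integrin subunit ITGB5. They were kept for 7 days in medium with 10% foetal calf serum, washed, and kept for 7 more days in medium with HBEGF, a growth factor that acts through the EGF receptor. Serum P7 cultures were the same panned cells at the end of the 7 days in serum. HBEGF P7 cultures were panned P7 cells kept for 7 days with HBEGF (5 ng/ml), and fresh P7 cells were panned and lysed without culture. The titles of the HBEGF P7 arrays give P7 while a further entry in their labels reads p1; the titles were followed, so the age of this group rests on them. MD cultures came from P1 forebrain by the procedure of McCarthy and de Vellis, in which mixed glia grow in serum, and had 7 days in 10% serum. HBEGF P1 cultures and fresh P1 cells were panned at postnatal day 1 and otherwise treated like their P7 counterparts. Panning selects by 1 surface protein, so each group holds whichever cells carried it or, in MD cultures, whichever cells attached and grew. The labels do not say whether replicates came from separate animals or cultures, so the p-values below measure only the spread between these samples.

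Notch is a receptor that is switched on by contact with a neighbouring cell. A ligand of the Jagged or Delta family on one cell binds a Notch receptor on the next, proteases of the ADAM family and γ-secretase then cut the receptor, and its freed intracellular domain enters the nucleus and joins the DNA-binding protein Rbpj and a Mastermind coactivator. Genes of the Hes and Hey families, which encode repressors of the basic helix-loop-helix class, are the best known targets, and in the developing forebrain the pathway holds progenitors undifferentiated, restrains proneural genes and favours astrocytes over neurons.

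The promoters of Hes5, Hes1 and Hey2 are shown because these effector genes were lower in culture in the results that follow, and that of Nrarp because it was lower too and differs from them in the motif it holds. Each is 300 bases of rat sequence from RefSeq (build GRCr8), from 250 bases before to 50 after the annotated start, written along the gene's strand. Hes5 lies at chr5:170804327-170804626 (plus strand), Hes1 at chr11:84212996-84213295 (minus strand), Hey2 at chr1:28640850-28641149 (plus strand) and Nrarp at chr3:28390495-28390794 (plus strand). Capitals mark TGGGAA, or TTCCCA where the match lies on the opposite strand, which is the core of the site that Rbpj binds.
Hes5: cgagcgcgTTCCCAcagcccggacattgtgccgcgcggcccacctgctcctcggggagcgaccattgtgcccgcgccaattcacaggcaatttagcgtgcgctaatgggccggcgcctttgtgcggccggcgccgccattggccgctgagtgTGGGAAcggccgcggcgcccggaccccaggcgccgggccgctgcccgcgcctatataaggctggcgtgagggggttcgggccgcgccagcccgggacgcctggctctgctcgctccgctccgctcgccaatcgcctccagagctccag
Hes1: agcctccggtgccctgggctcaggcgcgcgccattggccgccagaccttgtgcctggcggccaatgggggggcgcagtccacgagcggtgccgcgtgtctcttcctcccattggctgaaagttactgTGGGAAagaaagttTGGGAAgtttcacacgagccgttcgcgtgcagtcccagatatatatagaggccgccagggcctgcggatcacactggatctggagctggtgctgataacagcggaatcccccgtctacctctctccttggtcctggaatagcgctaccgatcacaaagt
Hey2: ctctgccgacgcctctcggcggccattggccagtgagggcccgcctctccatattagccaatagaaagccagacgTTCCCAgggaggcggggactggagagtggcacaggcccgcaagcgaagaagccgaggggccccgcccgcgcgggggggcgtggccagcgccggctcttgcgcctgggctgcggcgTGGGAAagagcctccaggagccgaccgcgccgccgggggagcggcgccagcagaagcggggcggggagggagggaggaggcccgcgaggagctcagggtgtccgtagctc
Nrarp: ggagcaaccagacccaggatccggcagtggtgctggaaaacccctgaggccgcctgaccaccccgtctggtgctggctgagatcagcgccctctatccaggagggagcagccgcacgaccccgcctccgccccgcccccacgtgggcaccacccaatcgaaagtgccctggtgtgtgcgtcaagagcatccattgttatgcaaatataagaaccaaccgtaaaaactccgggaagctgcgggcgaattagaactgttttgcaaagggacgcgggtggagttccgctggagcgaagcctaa
Hes5 held TGGGAA 2 times, 242 and 98 bases before the start and on opposite strands. Hes1 held it 2 times on its own strand, 123 and 109 bases before the start, and Hey2 held it 2 times, 175 and 60 bases before. Of 27457 rat promoters of the same length, 25.1% held the 6 letters on either strand and 3.67% held them 2 or more times. With the longer GTGGGAA, which contains TGGGAA, 6.19% of promoters matched and 0.222% matched 2 or more times, Hes5 among them, while Hes1, Hey2 and Dll1 had 1 match each. TGGGAA itself occurred 2 times in Dll1 and 1 time in Notch3, and was not among the letters of the Jag1, Notch1, Notch2 and Nrarp windows. The N-box CACNAG, the sequence that Hes repressors bind, occurred on either strand in 42.8% of promoters and 4 times each in Hes1 and Notch1. These are matches of letters in 7 of the 8 genes, since Hey1 had no entry in the table, and they are not evidence of binding.

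All values below are log2 of the deposited intensity unless a fold is named. A change was called when the adjusted p of limma (Benjamini-Hochberg over all probe sets within a comparison) was under 0.05 and the log2 change was at least 1 in size, and "rose" and "fell" are used of called changes only. RMA values carry no detection call, so readings near or under 7.11, the median of all values, may be background to an unknown extent, and a change against such readings is printed as measured, without a fold. The labelled cell type had its markers: in every group all 8 astrocyte markers were measured, and at most 1 of them had a mean under 7.11. The arrays of a group correlated between 0.963 and 0.994 (Spearman, over probe sets). Replicate 2 of the HBEGF P7 cultures and replicate 3 of the serum and of the withdrawn P7 cultures lay farthest from the other arrays of their groups, and results that depend on them are given with and without them. Since these were bulk RNA samples, fewer cells of a type and less RNA per cell cannot be told apart.

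Hes1 and Hes5 fell in each of the 4 kinds of culture set against fresh cells of their age, while Notch2 and Notch3 were not called in any comparison. In HBEGF P1 cultures against fresh P1 cells, 1 of the 8 genes rose and 3 fell, where 4.38% of all genes rose and 4.49% fell (8.87% called). In HBEGF P7 cultures against fresh P7 cells 5 fell, as did 5.51% of all genes (10.3% called). In MD cultures against fresh P1 cells 5 fell, as did 9.43% of all genes (19.6% called), and in serum P7 cultures against fresh P7 cells 4 fell, as did 9.04% (18.2% called). Between cultures from animals of the same age, 3 genes fell in MD cultures against HBEGF P1 cultures, as did 9.57% of all genes (18.4% called). In serum P7 cultures against HBEGF P7 cultures 1 gene rose and 2 fell, where 4.83% of all genes rose and 4.47% fell (9.3% called). In withdrawn P7 cultures against HBEGF P7 cultures 1 rose and 2 fell, where 6.29% of all genes rose and 5.42% fell (11.7% called). MD and HBEGF P1 cultures differ in preparation as well as medium, and the parts of each cannot be told apart. Withdrawn and HBEGF P7 cultures differ in earlier serum and in days in culture (14 and 7), which cannot be told apart either. No member was called between fresh P7 and fresh P1 cells (1.55% of all genes called), between HBEGF P7 and HBEGF P1 cultures (1.11%), or between withdrawn and serum P7 cultures (4.5%). Several of these comparisons share arrays: 3 of them are set against fresh P1 cells, and 2 each against fresh P7 cells, HBEGF P1 cultures and HBEGF P7 cultures. The median log2 change of the 8 genes was -1.38 in MD cultures against fresh P1 cells, -1.05 in serum P7 cultures and -1.02 in HBEGF P7 cultures against fresh P7 cells, and -0.43 in HBEGF P1 cultures against fresh P1 cells. The median of all 14217 genes in those comparisons lay between 0.03 and 0.11.

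**Figure D1:**
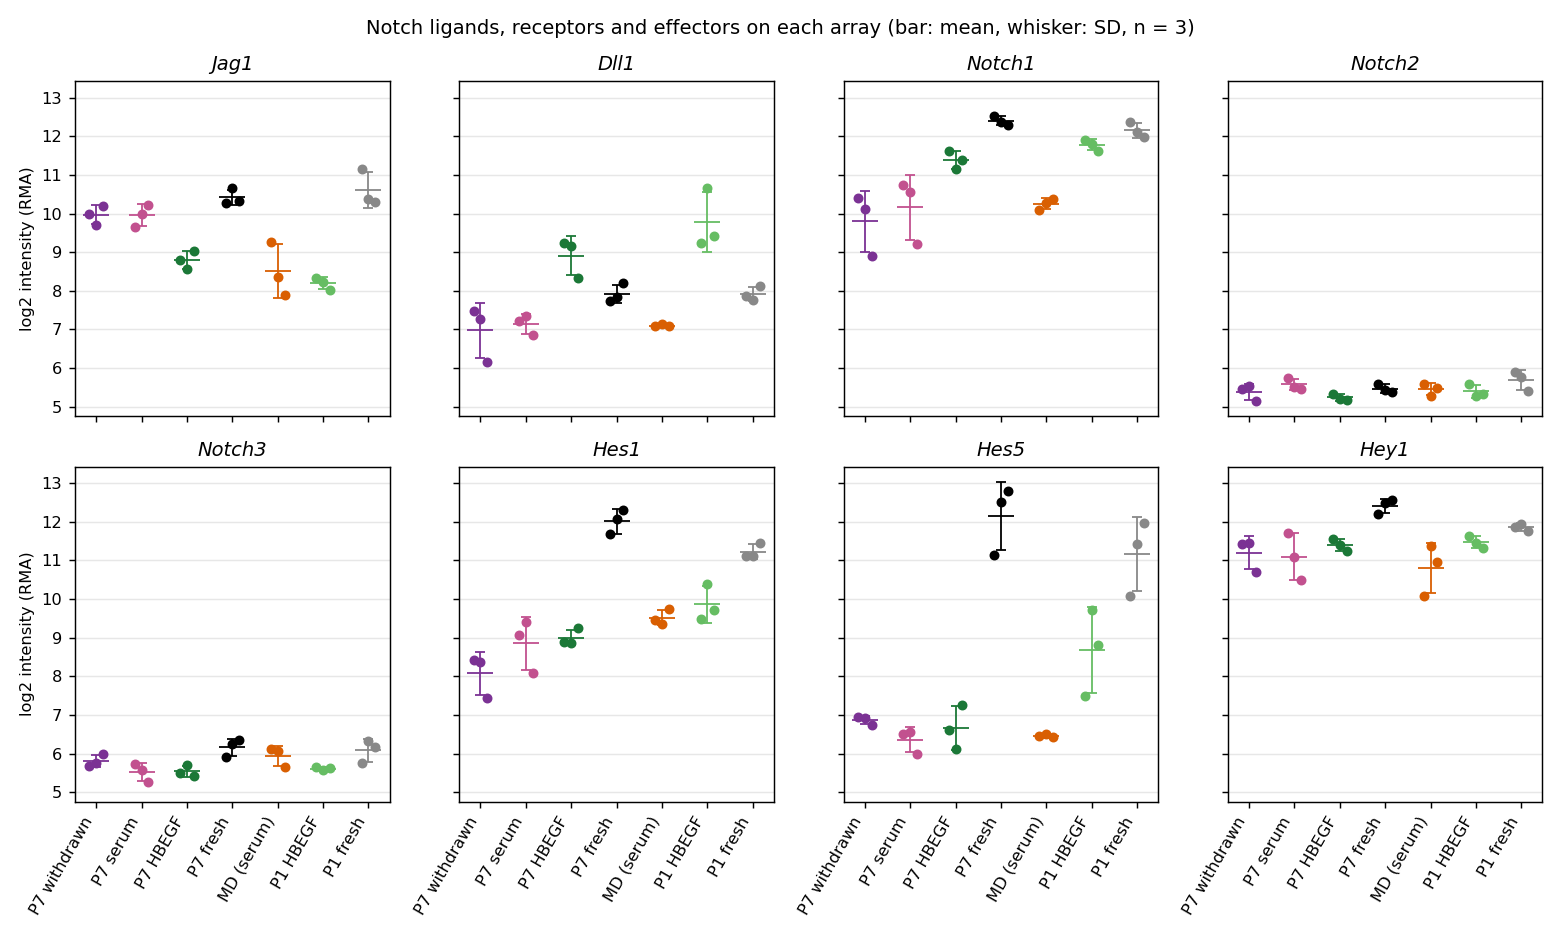
Log2 intensity of the lead probe set of each of the 8 Notch genes (vertical axis) on each of the 21 arrays, by group (horizontal axis); each point is 1 array, the bar is the mean and the whisker the SD of 3 arrays. Hes5 stood at 10.09 or more on every array of fresh cells and at 9.71 or less on every array of cultured cells, and Notch2 and Notch3 stayed at 6.34 or less throughout.

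Jag1, which encodes a Jagged-family ligand, was high in fresh cells of both ages and fell in HBEGF cultures of both. It read 8.33, 8.22 and 8.03 in HBEGF P1 cultures, against 11.14, 10.38 and 10.31 in fresh P1 cells. The lowest fresh array was about 2 log2 units above the highest cultured one. The change was -2.42 ± 0.28 (SE, n = 3 per group, limma adjusted p = 1.2e-05), a level 5.35-fold lower. At P7 it read 8.80, 8.57 and 9.04 in HBEGF cultures, against 10.27, 10.65 and 10.33 in fresh cells. The groups again did not overlap, and the change was -1.61 ± 0.28 (SE, n = 3 per group, limma adjusted p = 0.000454), 3.06-fold lower.

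In serum, Jag1 was low in MD cultures and high in panned P7 cells. MD cultures, at 9.26, 8.36 and 7.89, lay below every fresh P1 array, and the change was -2.11 ± 0.28 (SE, n = 3 per group, limma adjusted p = 1.48e-05). Panned P7 cells in serum stayed near the fresh level, with 9.65, 9.99 and 10.22, and the change against fresh P7 cells was -0.46 ± 0.28 (SE, adjusted p = 0.215, limma) with no overlap of the arrays. The difference between these 2 responses was 1.65 ± 0.40 (SE, limma adjusted p = 0.013) and was called with any 1 of the 12 arrays left out. Preparation and age differ together in it and cannot be told apart. For this difference of responses 1 of the 8 members was higher and 1 lower, where 4.25% of all genes were higher and 5.18% lower (9.43% called). Against HBEGF P7 cultures, Jag1 rose by 1.15 ± 0.28 in serum P7 cultures (SE, limma adjusted p = 0.0079) and by 1.16 ± 0.28 in withdrawn P7 cultures (SE, limma adjusted p = 0.00675). Withdrawn cultures read 9.98, 9.71 and 10.20 after their 7 days in HBEGF, inside the range of the serum arrays, and the difference from serum cultures was 0.01 with a 95% interval of -0.58 to 0.61. Without the most distant array of each of the 3 P7 culture groups, both rises against HBEGF P7 cultures were no longer called (0.90, adjusted p = 0.0973 for serum, and 0.93, adjusted p = 0.0915 for withdrawn, limma). By mean level the order was fresh P1, fresh P7, withdrawn P7, serum P7, HBEGF P7, MD and HBEGF P1, and of its neighbours only serum P7 and HBEGF P7 cultures passed the test.

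Dll1, a Delta-family ligand that progenitors and newly born neurons carry in the embryonic brain, had its highest levels in the HBEGF cultures, where Jag1 was low. It read 9.24, 10.67 and 9.43 in HBEGF P1 cultures, against 7.87, 7.76 and 8.13 in fresh P1 cells. The groups were more than 1 log2 unit apart, and Dll1 rose by 1.86 ± 0.35 (SE, n = 3 per group, limma adjusted p = 0.00114), a 3.63-fold higher level. At P7 it read 9.25, 9.15 and 8.34 in HBEGF cultures, against 7.74, 7.85 and 8.19 in fresh cells. The arrays did not overlap, though the closest lay near each other, and the change of 0.99 ± 0.35 missed both limits (SE, limma adjusted p = 0.0534). Without replicate 3 of the HBEGF P7 cultures it was 1.28 and called (limma adjusted p = 0.0232). The difference between the P7 and P1 responses was -0.87 ± 0.50 (SE, limma adjusted p = 0.551).

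In serum Dll1 was low in both systems. MD cultures read 7.08, 7.13 and 7.08, near the median of all values, and the change against HBEGF P1 cultures was -2.68 ± 0.35 (SE, limma adjusted p = 1.6e-05). Serum P7 cultures read 7.23, 7.36 and 6.86 and fell by 1.77 ± 0.35 against HBEGF P7 cultures (SE, limma adjusted p = 0.002). Withdrawn P7 cultures read 7.49, 7.28 and 6.15, and the change against HBEGF P7 cultures was -1.94 ± 0.35 (SE, limma adjusted p = 0.001). All 3 of these calls held with any 1 array left out, and those of the P7 cultures also without the most distant arrays. The change from serum to withdrawn cultures was -0.17 with a 95% interval of -0.92 to 0.57. Against fresh cells, the MD change of -0.82 (adjusted p = 0.0797) and the serum P7 change of -0.77 (adjusted p = 0.0999) were not called by limma, although the arrays did not overlap. The 2 HBEGF groups were the highest in mean, the 2 fresh groups shared a mean of 7.92, and the order among serum P7, MD and withdrawn P7 cultures, at 7.15, 7.10 and 6.98, was within their spread.

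Markers of other cells were also called in comparisons in which the ligand genes were called. Of 6 markers of oligodendrocyte progenitors, 3 rose and none fell in HBEGF P1 cultures against fresh P1 cells, and 3 fell and none rose in MD cultures against HBEGF P1 cultures. Their summed linear intensity was 3051 to 4892 in MD cultures, 20854 to 29676 in HBEGF P1 cultures and 11015 to 12191 in fresh P1 cells. At P7 it was 8898 to 11420 in withdrawn, 7533 to 14199 in serum and 12347 to 27468 in HBEGF cultures, against 9576 to 13365 in fresh cells. Pdgfra, also on the fibroblast list below, read 13.73 on serum replicate 3 and 13.41 on withdrawn replicate 3. Olig1 read 8.50 and 7.81 there, so these sums do not stand for progenitors alone. Against fresh P7 cells, 1 of the 6 rose in HBEGF cultures, and 1 rose and 2 fell in serum. Against HBEGF P7 cultures, 1 fell in serum and 2 in withdrawn cultures, with none rising. Sox10, a defining factor of the oligodendrocyte lineage, read 8.54, 7.50 and 7.53 in HBEGF P1 cultures, against 6.10 or less in fresh P1 cells. Not every marker of the list was higher there. Cspg4 read 6.07, 5.73 and 6.04 in HBEGF P1 cultures, against 6.68, 6.35 and 6.36 in fresh P1 cells. Olig2 read 5.85 to 6.29, against 5.91 to 6.34, and Olig1 read 13.30 to 13.99, against 13.25 to 13.39. For Jag1, the 8 fibroblast and meningeal markers, which share Pdgfra with the list above, summed to 67047 to 92125 in withdrawn, 56785 to 94544 in serum and 8020 to 41158 in HBEGF P7 cultures, against 6899 to 14639 in fresh P7 cells. Of these 8, 4 rose in serum P7 against HBEGF P7 cultures and 5 rose in withdrawn P7 against HBEGF P7 cultures, with no fall. Against fresh P7 cells, 7 of the 8 rose in serum cultures and 2 rose in HBEGF cultures. In MD cultures the sum was 6403 to 7168, and in HBEGF P1 cultures 16109 to 19261, against 4021 to 8990 in fresh P1 cells. There 1 of the 8 rose and 5 fell in MD cultures, and 2 rose in HBEGF P1 cultures with no fall. In the difference of serum responses in which Jag1 was called, 7 of the 8 were higher, with a median of 4.49. Neuron markers, of which 8 were measured, summed to 5250 to 8976 in MD and 4990 to 10112 in HBEGF P1 cultures, against 3330 to 3908 in fresh P1 cells. At P7 they summed to 1146 to 2892 in withdrawn, 1896 to 4584 in serum and 2312 to 9209 in HBEGF cultures, against 1367 to 1748 in fresh cells. Of these 8, none was called in HBEGF P1 cultures against fresh P1 cells, and 2 rose in HBEGF P7 cultures against fresh P7 cells. Against HBEGF cultures of their age, 2 fell in MD, 2 in serum P7 and 3 in withdrawn P7 cultures, with none rising. Endothelial markers, of which 7 were measured, summed to 307 to 311 in HBEGF P1 cultures, against 817 to 1505 in fresh P1 cells, and 2 of them fell. Against HBEGF P7 cultures, 1 of the 7 rose in serum and 2 in withdrawn cultures, with no fall. Of 8 mural markers, 3 rose and none fell in each of these groups against HBEGF P7 cultures. Of 8 microglia markers, 3 rose in withdrawn against HBEGF P7 cultures, and none was called in serum against HBEGF P7 cultures. Against fresh cells of their age, 1 mural marker fell and none rose in HBEGF P1 cultures. In MD and in HBEGF P7 cultures 2 mural markers fell and 1 rose, and in serum P7 cultures 1 fell and 3 rose. Of endothelial markers, 2 fell in MD, 1 fell in HBEGF P7, and 1 fell and 1 rose in serum P7 cultures. Of microglia markers, 2 fell in HBEGF P7 and 3 in serum P7 cultures, with none rising, and none was called in MD or HBEGF P1 cultures. The part of these cells in the Jag1 and Dll1 results was not tested.

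**Figure D2:**
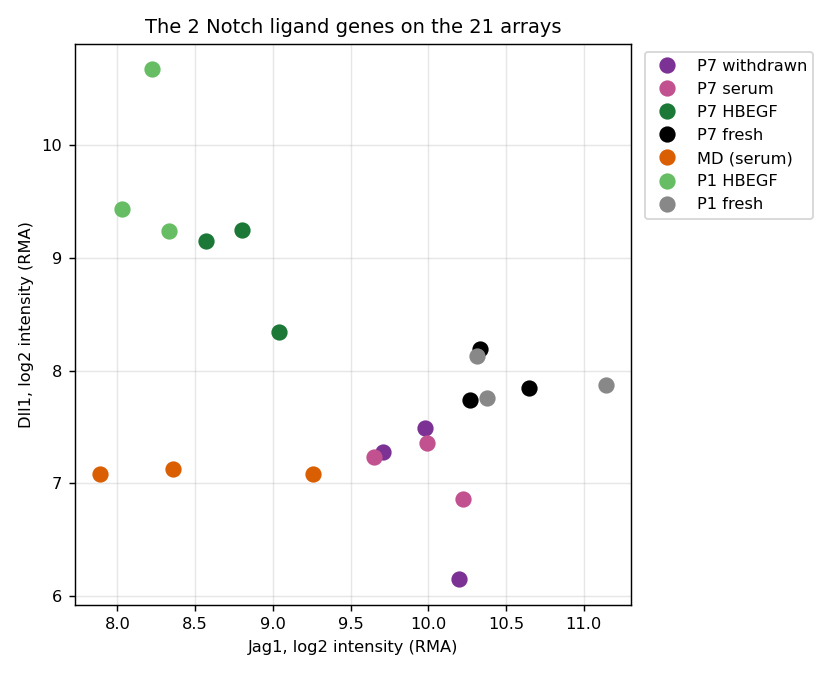
Jag1 (horizontal axis) and Dll1 (vertical axis) as log2 intensity on the 21 arrays, 1 point per array, coloured by group. The 6 HBEGF arrays lie at upper left, with Dll1 at 8.34 or more and Jag1 at 9.04 or less, the MD arrays at lower left, and the serum and withdrawn P7 arrays at lower right.

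Among the receptors, only Notch1 was called in any of the comparisons tested. It read 10.10, 10.27 and 10.38 in MD cultures and 11.91, 11.81 and 11.62 in HBEGF P1 cultures, against 12.37, 12.10 and 11.99 in fresh P1 cells. The 3 groups did not overlap, with MD cultures well apart from both others. Notch1 fell by 1.90 ± 0.35 in MD cultures against fresh P1 cells (SE, n = 3 per group, limma adjusted p = 0.000331) and by 1.53 ± 0.35 against HBEGF P1 cultures (SE, limma adjusted p = 0.00225). The fall against HBEGF P1 cultures was not called without the first-numbered arrays of the 5 groups other than serum and withdrawn P7 cultures (limma adjusted p = 0.0532). HBEGF P1 cultures against fresh P1 cells gave -0.37 with a 95% interval of -1.11 to 0.36 (limma adjusted p = 0.549).

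At P7, Notch1 read 10.39, 10.11 and 8.89 in withdrawn, 10.74, 10.56 and 9.20 in serum and 11.61, 11.16 and 11.38 in HBEGF cultures, against 12.53, 12.38 and 12.29 in fresh cells. Fresh cells lay above HBEGF cultures and these above both serum-exposed groups, and replicate 3 of each serum-exposed group was more than 1 log2 unit under its fellows. Against fresh P7 cells Notch1 fell by 2.23 ± 0.35 in serum (SE, limma adjusted p = 7.99e-05), 4.71-fold. The fall in HBEGF P7 cultures, a change of -1.02 ± 0.35 (SE, limma adjusted p = 0.0434), lost its call when any 1 of the 6 arrays was left out, with adjusted p between 0.0586 and 0.114. Against HBEGF P7 cultures, Notch1 fell by 1.59 ± 0.35 in withdrawn cultures (SE, limma adjusted p = 0.00362), a call lost when only the 2 groups compared were fitted (limma adjusted p = 0.0546). In serum cultures it fell by 1.21 ± 0.35 (SE, limma adjusted p = 0.0199), a change that was -0.73 and not called without their replicate 3 (limma adjusted p = 0.107). It was not called either without replicate 1 of the HBEGF P7 cultures (-1.10, limma adjusted p = 0.0688) or with only the 2 groups fitted (limma adjusted p = 0.123). The second Notch1 probe set gave the same calls as the lead one in all 12 tests, with -2.05 in MD cultures against fresh P1 cells and -2.51 in serum P7 cultures against fresh P7 cells.

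Notch2 read between 5.15 and 5.91 and Notch3 between 5.27 and 6.34 on the 21 arrays, both under the median of all values. Readings of that height may be background. No change of either reached 1 log2 unit. Notch3 was lower by adjusted p alone in HBEGF P7 cultures (5.41 to 5.70, against 5.91 to 6.34 in fresh P7 cells, a change of -0.62, limma adjusted p = 0.0129) and in serum P7 cultures (-0.63, limma adjusted p = 0.00715). For Notch2 the 95% interval of every change between fresh P7 and fresh P1 cells, HBEGF P7 and HBEGF P1 cultures, and withdrawn and serum P7 cultures lay within -0.53 to 0.15.

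**Figure D3:**
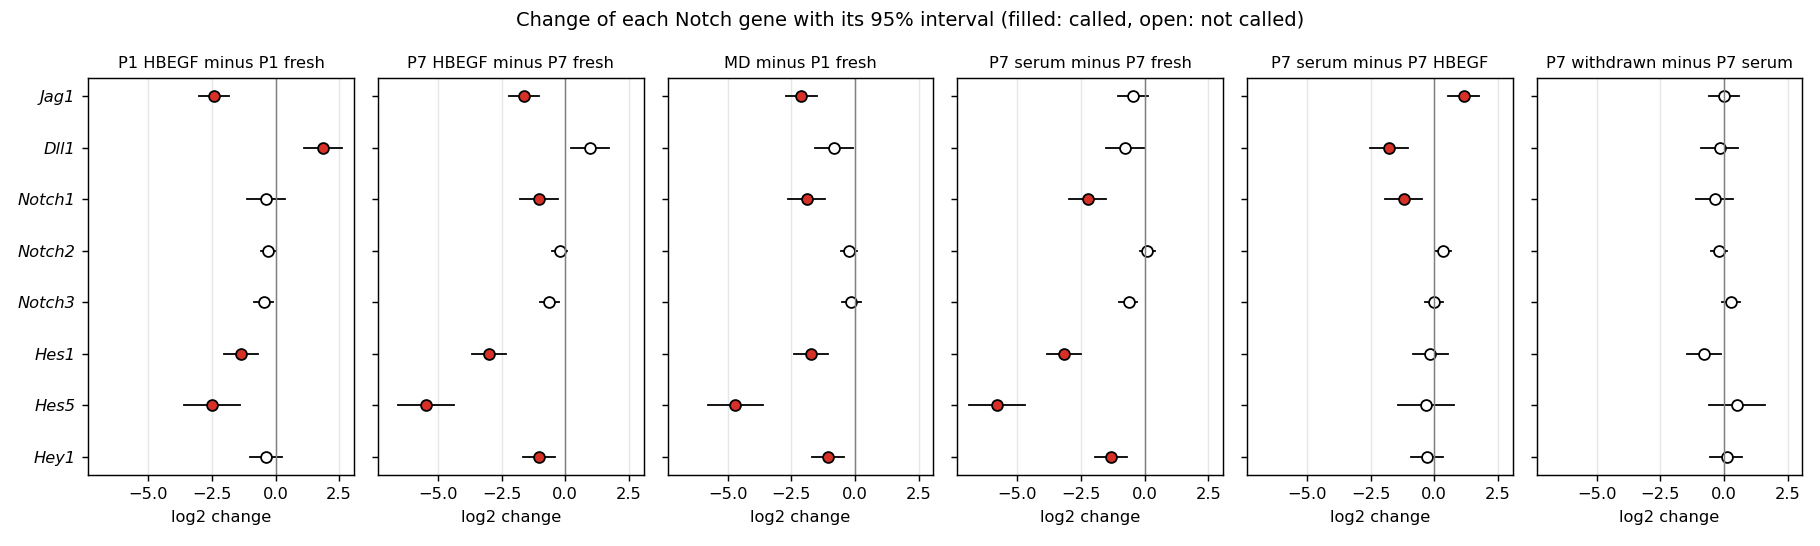
Log2 change of each of the 8 genes (horizontal axis) with its 95% interval from limma, in 6 comparisons given as the first group minus the second. Filled points were called and open points were not; Hes1 and Hes5 are filled and to the left of 0 in all 4 comparisons with fresh cells, and no gene is filled in withdrawn minus serum P7 cultures.

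Of the 3 effector genes, Hes5 had the widest spread over groups. Hes5, a repressor that in the brain is closely tied to Notch activity in neural stem cells and radial glia, read 7.50, 9.71 and 8.80 in HBEGF P1 cultures, against 10.09, 11.42 and 11.96 in fresh P1 cells. The spread within each of these groups was near 1 log2 unit, with replicate 1 the lowest in both, and the groups did not overlap. Hes5 fell by 2.49 ± 0.52 (SE, n = 3 per group, limma adjusted p = 0.00234), 5.61-fold. In HBEGF P7 cultures it read 6.62, 6.12 and 7.26, against 11.15, 12.51 and 12.80 in fresh P7 cells. This gap of more than 3 log2 units between the nearest arrays went with a change of -5.49 ± 0.52 (SE, limma adjusted p = 9.52e-07), to levels of which 2 of 3 lay under the median of all values. MD cultures read 6.45, 6.51 and 6.42, and the change against fresh P1 cells was -4.70 ± 0.52 (SE, limma adjusted p = 1.95e-06). Serum P7 cultures, at 6.51, 6.57 and 5.99, changed by -5.80 ± 0.52 against fresh P7 cells (SE, limma adjusted p = 2.15e-07). The means of HBEGF P7, MD and serum P7 cultures, at 6.67, 6.46 and 6.36, were near the heights at which Notch2 and Notch3 read, so how far Hes5 fell in them is not fixed by these readings, nor is their order.

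HBEGF P1 cultures had the highest Hes5 level of any culture. MD cultures fell by 2.21 ± 0.52 against them (SE, limma adjusted p = 0.0029), and all 6 fits that left out 1 array kept the call. HBEGF P7 cultures differed from HBEGF P1 cultures by -2.00 ± 0.52 (SE, 95% interval -3.10 to -0.91) with no overlap of arrays, which limma did not call (adjusted p = 0.0751). Arrays of these 2 groups with the same replicate number deviated together, and with the replicate block the same change of -2.00 was called (limma adjusted p = 0.0407). It was also called without replicate 1 of the HBEGF P1 cultures, at -2.59 (limma adjusted p = 0.029). The difference between the culture responses at P7 and at P1 was -3.00 ± 0.74 (SE, limma adjusted p = 0.0685), in a comparison in which 0.816% of all genes and none of the 8 were called. Serum cultures differed from HBEGF P7 cultures by -0.31 with a 95% interval of -1.41 to 0.79, and withdrawn from serum cultures by 0.51 with a 95% interval of -0.59 to 1.61. Withdrawn cultures read 6.94, 6.91 and 6.75. The second Hes5 probe set did not follow the lead one: it stayed between 6.88 and 7.60 on all 21 arrays and was called in no comparison. With the mean of both probe sets, the MD change against HBEGF P1 cultures was -0.97, under the fold limit (limma adjusted p = 0.0125), and the falls against fresh cells were still called.

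Hes1, a repressor found in many cell types and driven by other signals besides Notch, read 9.47, 10.39 and 9.72 in HBEGF P1 cultures, against 11.11, 11.12 and 11.45 in fresh P1 cells. The groups did not overlap and Hes1 fell by 1.37 ± 0.32 (SE, n = 3 per group, limma adjusted p = 0.00515), a call lost without the first-numbered arrays of the 5 groups named above (-1.23, limma adjusted p = 0.0801). In HBEGF P7 cultures it read 8.90, 8.87 and 9.24, against 11.67, 12.06 and 12.30 in fresh P7 cells. The gap here was wider, a change of -3.00 ± 0.32 (SE, limma adjusted p = 3.29e-06), 8.02-fold. MD cultures, at 9.46, 9.35 and 9.73, were 3.28-fold below fresh P1 cells (-1.71 ± 0.32, SE, limma adjusted p = 0.000377). Serum P7 cultures, at 9.06, 9.41 and 8.08, were 8.93-fold below fresh P7 cells (-3.16 ± 0.32, SE, limma adjusted p = 7.96e-07).

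Between cultures from animals of the same age the Hes1 differences were smaller. MD cultures differed from HBEGF P1 cultures by -0.35 (limma adjusted p = 0.419) and serum P7 from HBEGF P7 cultures by -0.15 (limma adjusted p = 0.773), and the arrays overlapped in both. Withdrawn P7 cultures had the lowest levels, 8.43, 8.37 and 7.44, a change of -0.92 ± 0.32 against HBEGF P7 cultures (SE, limma adjusted p = 0.043), short of the fold limit. Against serum cultures the change was -0.77 (limma adjusted p = 0.17), and without replicate 3 of the serum cultures it was -1.15 and called (limma adjusted p = 0.0209). The serum response of panned P7 cells differed from that of MD cultures by -1.44 ± 0.45 (SE, limma adjusted p = 0.0487), and 10 of the 12 fits that left out 1 array lost this call, with adjusted p up to 0.119. The responses to HBEGF culture at P7 and P1 differed by -1.64 ± 0.45 (SE, limma adjusted p = 0.109).

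Hey1, a Hey-family repressor that can also pair with Hes proteins, changed least of the 3 effectors. It read 10.09, 11.36 and 10.95 in MD cultures and 11.64, 11.46 and 11.32 in HBEGF P1 cultures, against 11.87, 11.95 and 11.75 in fresh P1 cells. Neither culture overlapped with fresh cells, though some arrays were close. Hey1 fell by 1.06 ± 0.30 in MD cultures (SE, limma adjusted p = 0.00934). Without their replicate 1 the change was -0.70 and not called (limma adjusted p = 0.0642), and with array weights it was -0.93, under the fold limit. At P7 it read 11.43, 11.45 and 10.71 in withdrawn, 11.70, 11.09 and 10.49 in serum and 11.55, 11.40 and 11.23 in HBEGF cultures, against 12.21, 12.49 and 12.55 in fresh cells. All cultured P7 arrays lay below all fresh P7 arrays. It fell by 1.32 ± 0.30 in serum (SE, limma adjusted p = 0.00198) and by 1.03 ± 0.30 in HBEGF (SE, limma adjusted p = 0.0179), and the call in HBEGF was lost without replicate 2 or 3 of the fresh cells or replicate 3 of the cultures (adjusted p between 0.0578 and 0.0614).

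Some astrocyte markers were called in each comparison of a culture with fresh cells of its age, though not all in the direction of Notch1 and the effectors. Of the 8, none rose and 4 fell in MD cultures against fresh P1 cells, and 2 rose and 2 fell in HBEGF P1 cultures. Their summed linear intensity was 58823 to 68835 in MD and 105950 to 120711 in HBEGF P1 cultures, against 88069 to 98797 in fresh P1 cells. At P7, 2 fell and none rose in both serum and HBEGF cultures, with sums of 105006 to 123132 in serum and 98009 to 126520 in HBEGF cultures, against 120077 to 126526 in fresh cells. The summed level was thus lower than in fresh cells on every array of the MD cultures, while that of HBEGF P1 cultures was higher on every array. Fibroblast and meningeal markers rose in serum P7 cultures, as given above with the ligands. Calls of mural, endothelial and microglia markers against fresh cells are also given there. The part of these shifts in the Notch1, Hes1, Hes5 and Hey1 falls was not tested.

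Between the 2 ages of fresh cells no effector was called, and all 3 estimates were above 0. Hes1 differed between fresh P7 and fresh P1 cells by 0.78 (95% interval 0.11 to 1.45, limma adjusted p = 0.208), Hes5 by 1.00 (95% interval -0.10 to 2.09, adjusted p = 0.343) and Hey1 by 0.56 (95% interval -0.06 to 1.18, adjusted p = 0.347). The arrays did not overlap for Hes1 and Hey1, and 16.1% of all genes had every fresh P7 array above every fresh P1 array. Jag1, Dll1 and Notch1 differed by -0.19, 0.00 and 0.25, with intervals between -0.79 and 0.98.

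The list of other Notch pathway genes held 78 names, of which 63 were measured. Against fresh P1 cells, 5 of the 63 rose and 14 fell in MD cultures, and 7 rose and 4 fell in HBEGF P1 cultures. Against fresh P7 cells, 6 rose and 9 fell in serum cultures, and 5 fell in HBEGF cultures with none rising. MD against HBEGF P1 cultures gave 3 higher and 14 lower, serum P7 against HBEGF P7 cultures 6 lower, and withdrawn P7 against HBEGF P7 cultures 3 higher and 6 lower. Fresh P7 against fresh P1 cells gave 2 higher and 1 lower (4.76% called, 1.55% of all genes). None was called between withdrawn and serum P7 cultures (4.5% of all genes) or between HBEGF P7 and HBEGF P1 cultures (1.11%). The median change of the 63 was -0.29 in MD cultures against fresh P1 cells, where that of all genes was 0.11, and between -0.02 and 0.05 in the other 3 comparisons with fresh cells. Of the 63, 30.2% were called in MD and 17.5% in HBEGF P1 cultures against fresh P1 cells, where 19.6% and 8.87% of all genes were. In serum P7 and HBEGF P7 cultures against fresh P7 cells it was 23.8% and 7.94%, where 18.2% and 10.3% of all genes were called. The share was 27.0% in MD against HBEGF P1 cultures (18.4% of all genes), 9.52% in serum P7 against HBEGF P7 cultures (9.3%) and 14.3% in withdrawn P7 against HBEGF P7 cultures (11.7%). The list was thus near or under the share of all genes in the HBEGF P7 comparison with fresh cells and in the serum P7 comparison with HBEGF P7 cultures.

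Nrarp and Hey2 fell in each culture set against fresh cells of its age. The list of feedback genes and negative regulators that holds Nrarp went both ways. Of its 9 measured genes, Nrarp among them, 3 rose and 1 fell in HBEGF P1 cultures (44.4% called, 8.87% of all genes). In MD cultures 2 rose and 3 fell (55.6%, 19.6% of all genes). Serum P7 cultures also gave 2 higher and 3 lower (55.6%, 18.2% of all genes). In HBEGF P7 cultures 1 fell and none rose (11.1%, 10.3% of all genes). Those that rose were Numbl, Bcl6 and Dtx3l in HBEGF P1, Numb and Numbl in MD, and Bcl6 and Dtx3l in serum P7 cultures. Nrarp, a Notch target whose product restrains Notch signalling, read 9.21, 8.50 and 8.82 in MD and 10.15, 10.31 and 9.61 in HBEGF P1 cultures, against 12.43, 12.22 and 11.97 in fresh P1 cells. At P7 it read 6.49, 6.51 and 6.16 in withdrawn, 6.67, 6.75 and 6.23 in serum and 9.03, 11.11 and 8.17 in HBEGF cultures, against 12.40, 12.21 and 12.44 in fresh cells. All cultured arrays lay below all fresh ones, the serum-exposed panned arrays lay lowest, and replicate 2 of the HBEGF P7 cultures stood 2 log2 units above its fellows. Against fresh P7 cells Nrarp changed by -5.80 ± 0.47 in serum P7 cultures (SE, limma adjusted p = 6.42e-08) and by -2.91 ± 0.47 in HBEGF P7 cultures (SE, limma adjusted p = 0.000218), or by -3.75 without replicate 2 of the HBEGF P7 cultures. Against HBEGF P7 cultures it changed by -2.89 ± 0.47 in serum and by -3.05 ± 0.47 in withdrawn cultures (SE, limma adjusted p = 0.000397 and 0.000269). Without replicate 2 of the HBEGF P7 cultures these changes were -2.05 and -2.22 and were still called, and with only the 2 groups fitted the serum one was not (limma adjusted p = 0.0596). The serum and withdrawn readings lay under the median of all values, so the sizes of these changes are not fixed by these readings. Another Nrarp probe set had means of 7.28 in HBEGF, 6.51 in serum and 6.11 in withdrawn P7 cultures, against 10.79 in fresh P7 cells. Its means were 7.92 in MD and 7.83 in HBEGF P1 cultures, against 11.35 in fresh P1 cells. A further one had means of 4.94, 4.81 and 4.94 in HBEGF, serum and withdrawn P7 cultures, against 7.2 in fresh P7 cells. The sizes against HBEGF P7 cultures thus rest on the lead probe set, and no test of the others alone is given here. By the lead probe set, the fall in serum was larger in panned P7 cells than in MD cultures. The difference was -2.44 ± 0.66 (SE, limma adjusted p = 0.0246), a call kept in 8 of the 12 fits that left out 1 array.

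Hey2, another Hey-family repressor, had group means of 8.97 in withdrawn, 8.56 in serum and 9.72 in HBEGF P7 cultures, against 12.38 in fresh P7 cells. In MD and HBEGF P1 cultures the means were 9.55 and 9.86, against 12.54 in fresh P1 cells. Its fall was thus of like size in both HBEGF cultures, -2.68 ± 0.21 at P1 and -2.66 ± 0.21 at P7 (SE, limma adjusted p = 1.37e-07 and 9.32e-08), where Hes5 and Hes1 had a larger estimate at P7. Hes6, which counters Hes1 and promotes differentiation, fell in MD cultures only among the comparisons tested here, with changes of -1.67 against fresh P1 cells and -2.66 against HBEGF P1 cultures (limma adjusted p = 1.56e-05 and 1.53e-07). Its serum response differed between panned P7 cells and MD cultures by 1.79 (limma adjusted p = 0.00182). Rbpj, the DNA-binding partner of the cleaved receptor, stayed between 11.01 and 12.06 on all arrays by its lead probe set, which was called in no comparison. Its other probe sets were less even. One had means of 9.97 in serum P7 and 8.64 in fresh P7 cells, and of 9.90 in MD and 8.98 in fresh P1 cells. The other had means of 8.30 and 7.09 in serum and fresh P7, and 7.69 and 7.41 in MD and fresh P1 cells. No test of these probe sets is given here.

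**Figure D4:**
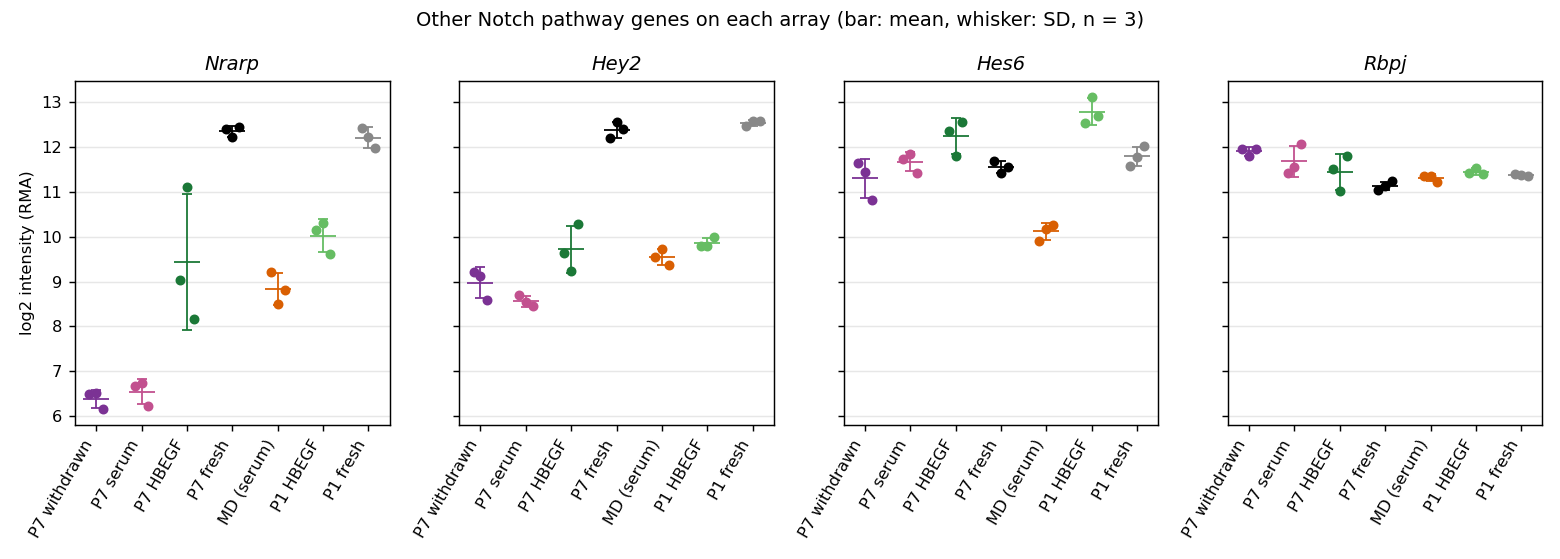
Log2 intensity of the lead probe set of Nrarp, Hey2, Hes6 and Rbpj (vertical axis) on each of the 21 arrays, by group (horizontal axis); each point is 1 array, the bar is the mean and the whisker the SD of 3 arrays. Nrarp and Hey2 are higher on all fresh arrays than on all cultured ones, Hes6 is lowest in MD cultures, and Rbpj lies in a narrow band.

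Regulators of the receptor and proneural genes were also called. Dtx4, a ubiquitin ligase of the Deltex family that acts on Notch receptors, fell in MD cultures against fresh P1 cells (-2.43, limma adjusted p = 3.31e-06) and against HBEGF P1 cultures (-2.36, limma adjusted p = 5.72e-06). In serum P7 cultures it fell against HBEGF P7 cultures (-1.57, limma adjusted p = 0.000885), and in withdrawn P7 cultures likewise (-2.24, limma adjusted p = 5.54e-05). Fbxw7, part of the ligase that marks the cleaved receptor for breakdown, and Tle4, a corepressor that Hes proteins recruit, fell in serum P7 against HBEGF P7 cultures with changes of -1.26 and -1.33 (limma adjusted p = 0.00133 and 1.33e-05). Neurog2, a proneural factor that Hes proteins repress, read 8.16, 8.84 and 7.77 in HBEGF P1 cultures, against 6.16, 6.09 and 6.08 in fresh P1 cells. It rose by 2.15 ± 0.42 (SE, limma adjusted p = 0.00151) and read at most 6.16 in MD cultures, a change of -2.17 against HBEGF P1 cultures (limma adjusted p = 0.000642). In serum P7 cultures, unlike MD cultures, it was called higher than in fresh cells, reading 7.55, 7.12 and 7.72, against 6.28, 5.87 and 5.57 in fresh P7 cells (1.55, limma adjusted p = 0.00816), though the difference of the 2 serum responses was not called (1.58, limma adjusted p = 0.108). Eogt, which adds sugars to the receptor's extracellular part, was 1.28 higher in fresh P7 than in fresh P1 cells (limma adjusted p = 0.0027) and fell in HBEGF P7 cultures against fresh P7 cells (-1.39, limma adjusted p = 0.000118). Id4, which glial precursors carry and which inhibits factors of the helix-loop-helix class, fell by 2.24 in MD cultures against fresh P1 cells (limma adjusted p = 0.000434). It changed by -2.21 in serum P7 cultures against fresh P7 cells (limma adjusted p = 0.000551). All these calls held with any 1 array left out. With the mean of all its probe sets, Dtx4 stayed under the fold limit against HBEGF cultures of the same age, with -0.78 in MD, -0.54 in serum P7 and -0.91 in withdrawn P7 cultures, as did Eogt between the ages (0.94).

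Some calls in the list hung on single arrays. Olig1, a transcription factor of the oligodendrocyte lineage, read 8.50 on replicate 3 of the serum P7 cultures, against 12.32 and 12.21 on the other arrays of that group, and its change against fresh P7 cells was -2.18 with all arrays and -0.93 without that array (limma adjusted p = 0.0461 and 0.286). It read 10.22, 9.59 and 7.81 in withdrawn cultures, against 13.39, 14.56 and 11.92 in HBEGF P7 cultures, and that change of -4.08 held with any 1 array left out (limma adjusted p = 0.00196). The arrays with low Olig1 in the serum-exposed groups were those with the lowest Notch1, Dll1 and Hes1. Neurod1, a proneural factor, was lower in fresh P7 than in fresh P1 cells (-2.01, limma adjusted p = 0.0384), a call lost with any 1 array left out.

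Over the 21 arrays, Hes1 and Hes5 correlated at 0.91 (Pearson), Notch1 with Hes1 at 0.85 and with Hey1 at 0.81, and Jag1 with Dll1 at -0.47. These values describe 7 groups of 3 arrays, so they mostly compare group levels. By the same measure the non-member genes most like each member were Rrad, Igsf3 and Irs1 for Jag1 (0.880 to 0.882) and Dpysl4, Rcor2 and Repin1 for Dll1 (0.943 to 0.950). For Notch1 they were Rnf180, Adgrb3 and Phlpp1 (0.980 to 0.988), for Notch2 Amy2a3, Tada2b and Tenm2 (0.649 to 0.751), and for Notch3 Pim1, Mafk and Trib1 (0.827 to 0.832). Among the effectors they were Sema6a, Gramd4 and Tmem198 for Hes1 (0.947 to 0.958), Mxd1, Btg1 and Kcnip2 for Hes5 (0.943 to 0.947), and Clcn3, Afap1l2 and Papss1 for Hey1 (0.893 to 0.897).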

How the data were processed

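Each array had 1 deposited intensity per probe set, which the authors obtained with RMA according to the submitters' processing notes; software, version and chip definition were not given in the sources. The values ran from 10 to 37801 with array medians of 128 to 146, so they were on a linear scale, and log2 of the deposited intensities was used with no low-value filter. Of 31042 probe sets, 20826 carried 1 gene symbol, 436 several and 9780 none. RMA values carry no detection call, and 3 arrays per group limit the precision.

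Groups came from the sample titles. For the HBEGF P7 cultures these were followed over a characteristics entry that reads p1. limma 3.58.1 in R 4.3.3 (lmFit, contrasts.fit, eBayes) fitted 7 group means (residual degrees of freedom 14, prior 2.89) for 10 comparisons and 2 differences of differences, with Benjamini-Hochberg adjustment over all probe sets. The script was first tested on simulated data. The genes named were the 8 members, up to 4 called genes of the pathway list per comparison with the largest change, and the 3 most correlated genes of each member. Hey2, Hes6 and Rbpj are also followed through other comparisons. Numb, Numbl, Bcl6 and Dtx3l are named as the genes that rose in the list that holds Nrarp. Sox10, Cspg4, Olig1, Olig2 and Pdgfra, among the marker genes, were picked after their values were seen. The members and all lists were chosen with earlier results of these data known.

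Alternatives were a replicate block, a fit of only the compared groups, an intensity trend with robust variance, quantile normalization, a filter on low values, array weights, no fold limit, the mean of all probe sets and leaving out each array. Replicate numbers come from the titles. Same-numbered arrays deviated together from their group means, with all 3 correlations over 0.1, in MD against fresh P1 cells (0.157 to 0.306), MD against HBEGF P1 cultures (0.281 to 0.481), HBEGF P1 against fresh P1 cells (0.24 to 0.408), HBEGF P7 against HBEGF P1 cultures (0.44 to 0.588) and withdrawn against serum P7 cultures (0.283 to 0.521), so the numbers were read as pairing those arrays. The main fit did not use this pairing, which entered only the fit with the replicate block. What same-numbered arrays share was not tested.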

Additional observations from a re-analysis of the deposited data

Results flagged for a closer look

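For 2 genes the response to serum culture differed between panned P7 cells (serum P7 cultures minus fresh P7 cells) and MD cultures (MD cultures minus fresh P1 cells), by a limma test of the difference itself. For Jag1 the difference was 1.65 (SE 0.40, adjusted p = 0.013), from changes of -0.46 in panned P7 cells and -2.11 in MD cultures. It stayed between 1.34 and 2.02 with any 1 array left out. For Hes1 the difference was -1.44 (SE 0.45, adjusted p = 0.0487), from changes of -3.16 in panned P7 cells and -1.71 in MD cultures. It lay between -1.72 and -1.06 with 1 array left out and kept its call in 2 of 12 such fits. Age and preparation differ together between the 2 responses.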

How the results depend on the processing

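No called member value changed sign under any alternative. Leaving out 1 array at a time gave 0 to 1 called members for the difference of HBEGF responses, 4 to 5 for MD against fresh P1 cells, 3 in each fit for MD against HBEGF P1 cultures, 4 in each fit for HBEGF P1 against fresh P1 cells, and 0 in each fit for fresh P7 against fresh P1 cells. It gave 0 to 1 for HBEGF P7 against HBEGF P1 cultures, 3 to 4 (5 with all arrays) for HBEGF P7 against fresh P7 cells, and 4 in each fit for serum P7 against fresh P7 cells. It gave 2 to 3 for serum P7 against HBEGF P7 cultures, 3 to 4 for withdrawn P7 against HBEGF P7 cultures, 0 to 1 for withdrawn against serum P7 cultures, and 1 to 2 for the difference of serum responses. With the replicate block, Hes5 was called (1 member, in place of 0) in HBEGF P7 against HBEGF P1 cultures and in the difference of HBEGF responses (-3.00, limma adjusted p = 0.0369), and the block changed no other member's call. Array weights also gave 1 there (Hes5, -2.78, limma adjusted p = 0.0494). Quantile normalization left 1 of 2 members in the difference of serum responses, Hes1 missing at limma adjusted p = 0.0513. A fit of only the compared groups lost Notch1 in serum P7 and withdrawn P7 against HBEGF P7 cultures (limma adjusted p = 0.123 and 0.0546), and Nrarp and Hey2 in the serum comparison (limma adjusted p = 0.0596 and 0.0508). Arrays were also left out in ways chosen after seeing the data. Without the most distant array of the 3 P7 culture groups, serum P7 against HBEGF P7 cultures kept 1 member (Dll1), and the difference of HBEGF responses gained 1 (Hes1, -1.57, limma adjusted p = 0.0222). Without the first-numbered arrays of the 5 groups other than serum and withdrawn P7 cultures, HBEGF P7 against HBEGF P1 cultures and the difference of HBEGF responses gave 1 each (Hes5, -2.57 and -3.53), and the difference of serum responses kept 1. Hes1 in HBEGF P1 against fresh P1 cells was then not called (-1.23, limma adjusted p = 0.0801), nor was Notch1 in MD against HBEGF P1 cultures (limma adjusted p = 0.0532). The cause of these changes was not tested, and both left-out sets lower the number of arrays. Of all genes, the number called also moved: with only the compared groups it was 0 in place of 158 in HBEGF P7 against HBEGF P1 cultures and 762 in place of 1322 in serum P7 against HBEGF P7 cultures, and with array weights 1168 in place of 640 in withdrawn against serum P7 cultures.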
